A study of Hippoglossus hippoglossus with 15 samples.

Results

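High quality Atlantic halibut (Hippoglossus hippoglossus) embryos at the germ ring stage (GR, 82 hours post fertilization, hpf) were compared with high quality embryos that had hatched (HT, 340 hpf). The 6 arrays were chosen by their labels alone, 3 for GR and 3 for HT, of 15 arrays in the series. The series also held high quality embryos at the 8-cell stage (8CS) and at the 10-somite stage (10SS), and low quality 8CS embryos. Eggs came from 8 farmed females, were fertilized in vitro with the pooled sperm of 2 males, and developed at 6.3 °C with no other treatment. High quality embryos were those of egg batches with high fertilization and hatching success. Whole snap-frozen eggs or embryos were extracted, and RNA of each sample was labelled with Cy3 and hybridized to 1 array of 60-base oligonucleotide probes. The methods give 3 batches of eggs per stage, but the labels do not say which batch an array held or whether batches were matched between stages. The p-values therefore measure the spread between these 3 arrays per stage. Fewer cells of a type and less RNA per cell cannot be told apart in such samples.

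At the germ ring stage a fish embryo is a gastrula: the blastoderm spreads over the yolk, a thickened ring at its margin sends cells inwards, and the germ layers form. The egg is provisioned with maternal RNA, which is cleared in part while transcription of the embryonic genome takes over. A hatched halibut larva still lives on its yolk sac, but it has somites, a notochord and a nervous system, and hatching gland cells have released proteases that soften the egg shell. The comparison thus spans the net change from a gastrula to a free embryo with differentiated tissues.

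Each value below is a log2 level, the log2 processed signal of a probe minus the 75th percentile of its array, averaged over the copies of the probe. Of 10180 probes 9058 were kept, those that reached the 20th percentile of any of the 6 arrays. A probe was called when its Benjamini-Hochberg adjusted p from limma, over all probes kept, was under 0.05 and the stages differed at least 2-fold. By this rule 5458 probes (60.3% of those tested) were called. At HT 2509 probes (27.7%) were higher and 2949 (32.6%) were lower. The 3 GR values and the 3 HT values did not overlap for 7327 probes (80.9%). The rises reached further than the falls. At least 16-fold differences were found for 688 probes that were higher at HT and for 153 that were lower, and at least 256-fold differences for 176 and 6 probes. These counts use fitted differences and include probes in the background on some or all arrays of a stage, where the size is uncertain. Among probes well above background on all 6 arrays, the largest rise was 4010-fold and the largest fall 215-fold.

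**Figure D1:**
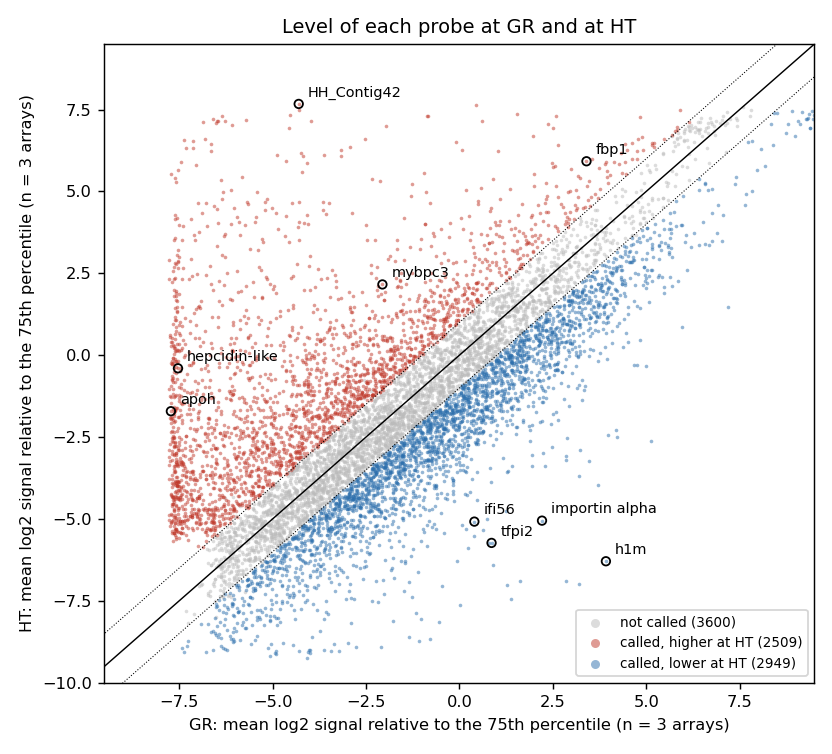
Mean log2 level of each of the 9058 probes at GR (x axis) and at HT (y axis), 3 arrays each, in log2 units relative to the 75th percentile of each array. The solid line marks equal levels and the dotted lines 2-fold differences; 2509 probes lie above as called higher at HT and 2949 below as called lower, and many of the former stand at the left edge, at GR levels near background; under spike-in scaling most of the called falls turn.

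The direction of a middling change depended on the scale. The 75th percentile of the raw signal was 515 to 856 on the GR arrays and 2750 to 2980 on the HT arrays, at 200 ng of labelled total RNA each. Scaled to the 75th percentile, the median difference over all probes was -0.23 on the log2 scale. Scaled to spike-in RNA it was 2.38, a shift of 2.61, and then 7188 probes were called higher at HT and 205 lower. All levels below are therefore relative to the rest of the RNA on the array. The low end of the scale was also unlike between the stages. The share of probes well above background (the scanner software's test against the background of a spot) was 70.5% to 79.3% on the GR arrays and 88.3% to 91.2% on the HT arrays. Of the 2509 probes called higher at HT, 733 were well above background on every HT array and on no GR array, whereas 46 of the 2949 called lower showed the opposite pattern and 26 were detected on none of the 6 arrays. For these 26 no fold-change is given. For the 733 and the 46 the fold-change is a lower bound (written "at least"). It sets the brighter stage against a floor, which on each dimmer array was the weakest signal that still counted as well above background, or the probe's own signal if that was higher. Where only some arrays of a stage detected a probe, a fold-change printed for it includes background values and is uncertain. With the normexp background correction, which adds a constant of 50 to every signal, 1243 of the 1334 risers that were well above background on all 6 arrays kept their direction, but only 381 of those 733 did. The constant is a larger share of the dimmer GR signals by construction. How far a turn under normexp of a probe in the GR background rests on this constant was not tested. Where such a probe turned, its direction depended on the treatment and is not settled.

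**Figure D2:**
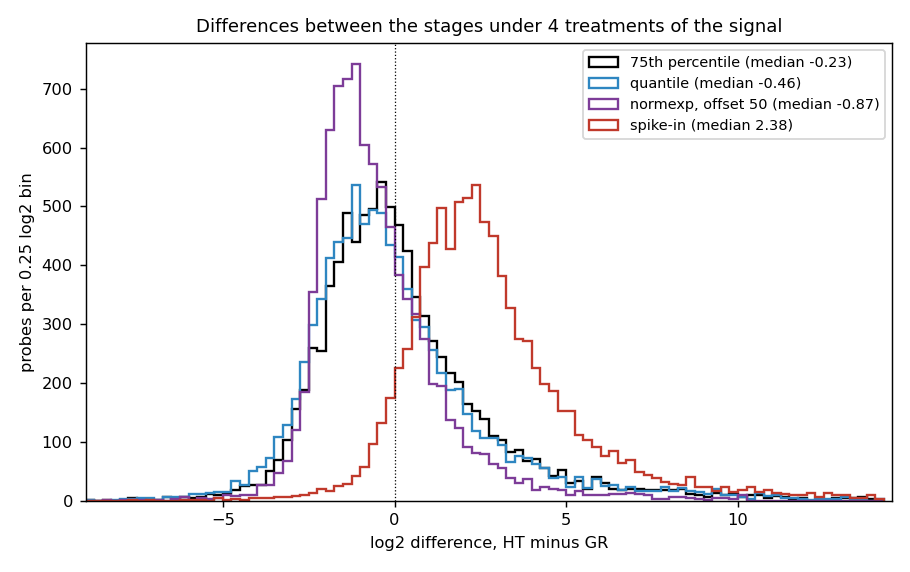
Number of probes (y axis, per bin of 0.25) against the log2 difference HT minus GR (x axis) under 4 treatments of the signal, each line a histogram of the 9058 probes kept. The median lies at -0.23 with the 75th percentile, -0.46 with quantile normalization and -0.87 with normexp, and at 2.38 with spike-in scaling, where most differences are above 0.

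The 3 HT arrays lay on 1 slide and the 3 GR arrays on 3 other slides, so slide and stage cannot be told apart within these 6 arrays. Arrays of a stage were alike across probes, with a Pearson correlation of 0.978 to 0.992 among GR arrays and of 0.994 to 0.998 among HT arrays, against 0.648 to 0.673 between the stages. Replicates varied less at HT, with a median SD per probe of 0.12, than at GR, with 0.32. As a description of the HT arrays, 3 transcripts of late embryos are given. All 3 come from the study's list of transcripts that peak at HT on these arrays, so they are no independent check of the labels. The probe named hatching enzyme, the protease that digests the egg shell, was well above background on every HT array and on no GR array, as was that of the muscle acetylcholine receptor subunit chrna1, and both turned under normexp (-1.05 and -0.96). Cardiac myosin binding protein C (mybpc3) was detected at both stages and higher at HT.

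The largest rises lay in transcripts that the tables used here do not name. Among probes well above background on all 6 arrays, the 10 largest rises ran from 608-fold to 4010-fold, and none of these 10 probes had a name. HH_Contig42 had log2 levels of -4.82, -4.21 and -3.86 on the GR arrays and of 7.74, 7.71 and 7.58 on the HT arrays (4010-fold higher at HT, limma adjusted p = 3.09e-08). HH_Contig135 stood at -4.46, -4.79 and -2.71 at GR and at 7.27, 7.23 and 7.0 at HT (2270-fold, limma adjusted p = 9.25e-07). The HT values of both lay close together, while GR replicate 3 held the highest GR value of each, and without it the log2 difference of HH_Contig135 moved from 11.15 to 11.79. At 10SS HH_Contig42 stood at 7.3, 7.27 and -4.21, so that 2 arrays were near the HT level and 10SS replicate 3 near the GR level. The 8CS arrays held HH_Contig42 at 3.66, 4.06 and -1.38 and HH_Contig135 at 4.78, 5.17 and -0.24, all above the GR values. The rise from GR was therefore not a first appearance of these signals on the arrays. The source of the 8CS signal was not tested.

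Among rises the 5 largest bounds were also those of unnamed probes, which no GR array detected, and ran from at least 6110-fold to at least 7260-fold. The largest was that of HH_Contig1363, at -7.24, -7.81 and -7.02 on the GR arrays, all in the background, and at 6.48, 6.73 and 6.5 on the HT arrays (at least 7260-fold, limma adjusted p = 1.84e-08). On the 10SS arrays it lay at 1.66, 1.75 and -6.36, so that 10SS replicate 3 was near the GR level and the other 10SS arrays lay between the stages. The 8CS arrays held HH_Contig1363 at 2.26, 2.83 and -3.94, also above the GR values.

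The 10 largest falls on all 6 arrays ran from 89.2-fold to 215-fold, and 3 of these probes had a name: importin alpha, rpa2 and tfpi2, all described below. HH_Contig569 led them, with 5.24, 5.29 and 4.84 at GR and -2.36, -2.61 and -2.91 at HT (215-fold lower at HT, limma adjusted p = 7.55e-08). HH_90606578 followed, with 3.72, 3.55 and 3.82 at GR and -3.53, -4.3 and -4.07 at HT (202-fold lower, limma adjusted p = 1.12e-07). These falls were smaller than the rises at the same rank, and in each the 3 arrays of a stage lay together.

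The study's lists held 321 probes, of which 193 had a name, and 127 were placed here in 13 groups by function. Of these 127 probes 121 passed the filter. The names were those of the best protein match of each probe's sequence. The groups were drawn from lists that the study had made on these same arrays, of transcripts that peaked at 1 stage or differed with egg quality. A member from the HT list was thus chosen for being high at HT and one from the GR list for being high at GR, so their direction is a description and not independent evidence. The members from the lists for 8CS, for 10SS and for egg quality were chosen in contrasts other than HT against GR, although the same arrays entered.

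**Figure D3:**
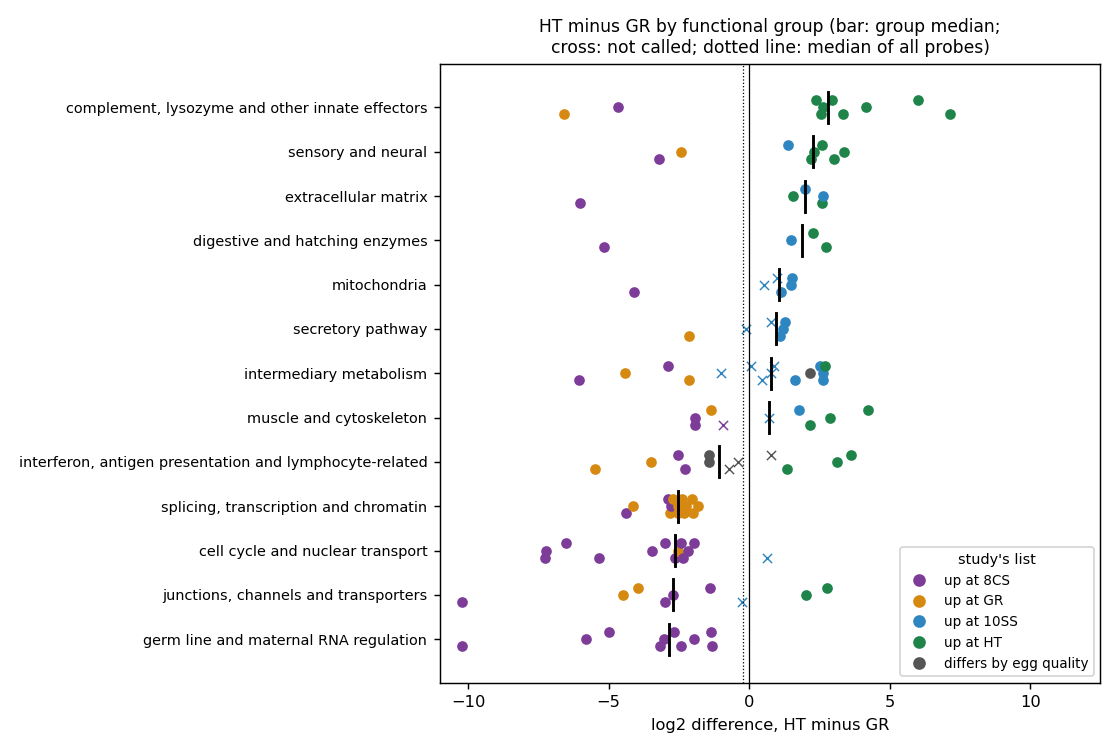
Log2 difference HT minus GR (x axis) of the 121 grouped probes kept, by functional group (y axis), coloured by the list of the study that holds the probe. Dots were called, crosses were not, and black bars are group medians. Medians run from -2.86 for germ line and maternal RNA regulation to 2.79 for innate effectors, and members from the lists for 8CS and GR make up nearly all points left of the dotted line, the median of all probes at -0.23; under spike-in scaling all points lie about 2.61 further right.

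Most transcripts of the innate effector group, proteins of the blood and of phagocytes, were higher at HT in the arrays scaled to the 75th percentile, and 2 were far lower. Complement is a set of serum proteins that tag and lyse microbes, and much of it is made by the liver. The study states that hatched halibut embryos do not have a liver yet. Of 10 probes in the group 8 rose and 2 fell, beside 27.7% and 32.6% of all probes, with a median of 2.79. All 8 that rose came from the HT list, and their direction was fixed by that choice. The direction held under quantile normalization and spike-in scaling, but 5 of the 8 turned under normexp.

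The probe of hepcidin, the peptide hormone that limits iron release and also kills bacteria, rose most. It lay in the background at GR, at -7.28, -7.83 and -7.5, and reached 0.77, -0.34 and -1.64 at HT (at least 57.9-fold, limma adjusted p = 1.42e-05). Its 3 HT arrays were spread (SD 1.21), and without HT replicate 3 the fitted log2 difference moved from 7.13 to 7.75. Apolipoprotein H (apoh), a plasma glycoprotein that binds phospholipids, showed no such spread. It stood at -7.32, -8.03 and -7.82 at GR, again in the background, and at -1.65, -1.78 and -1.71 at HT (at least 23.4-fold, limma adjusted p = 2.42e-07).

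Complement component c3, the protein on which all routes of complement activation converge, was at -7.21, -7.7 and -7.32 at GR and at -3.43, -2.99 and -3.35 at HT (at least 8.02-fold, limma adjusted p = 1.27e-06). The GR values were those of background. Complement factor D (cfd), the serine protease of the alternative route, went from -6.77, -6.08 and -5.83 to -3.71, -3.23 and -2.92 (at least 5.94-fold, limma adjusted p = 6.63e-05). Under normexp the difference of both was close to 0, at -0.04 for c3 and -0.09 for cfd. Lysozyme C, which cleaves bacterial cell walls, was the 1 member detected on all 6 arrays among the risers: it had -4.55, -4.09 and -4.19 at GR and -2.08, -1.2 and -1.64 at HT (6.22-fold, limma adjusted p = 4.44e-05), and it kept its call under every alternative. The lectin receptor clec4e, which senses damaged cells and mycobacteria in mammals, was above background on 1 GR array and 5.25-fold higher at HT. The inflammasome adaptor pycard and tissue factor 2, related to the starter of blood clotting, rose at least 3.82-fold and at least 2.07-fold, and all 3 of these turned under both normexp runs.

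Against these stood 2 members that fell. Tissue factor pathway inhibitor 2 (tfpi2), a serine protease inhibitor, was at 1.04, 0.88 and 0.66 at GR and at -5.32, -5.59 and -6.28 at HT (96.3-fold lower, limma adjusted p = 5.22e-07). It came from the GR list, and was at -3.89 on average at 8CS, so that the GR arrays stood above those on both sides. The transcript of litaf, a membrane protein of late endosomes first described as a regulator of TNF, was taken from the 8CS list and fell from -0.9, -1.01 and 0.0 to -5.2, -5.14 and -5.55 (25.3-fold lower, limma adjusted p = 4.52e-06). Both remained lower under all alternatives, spike-in scaling included.

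**Figure D4:**
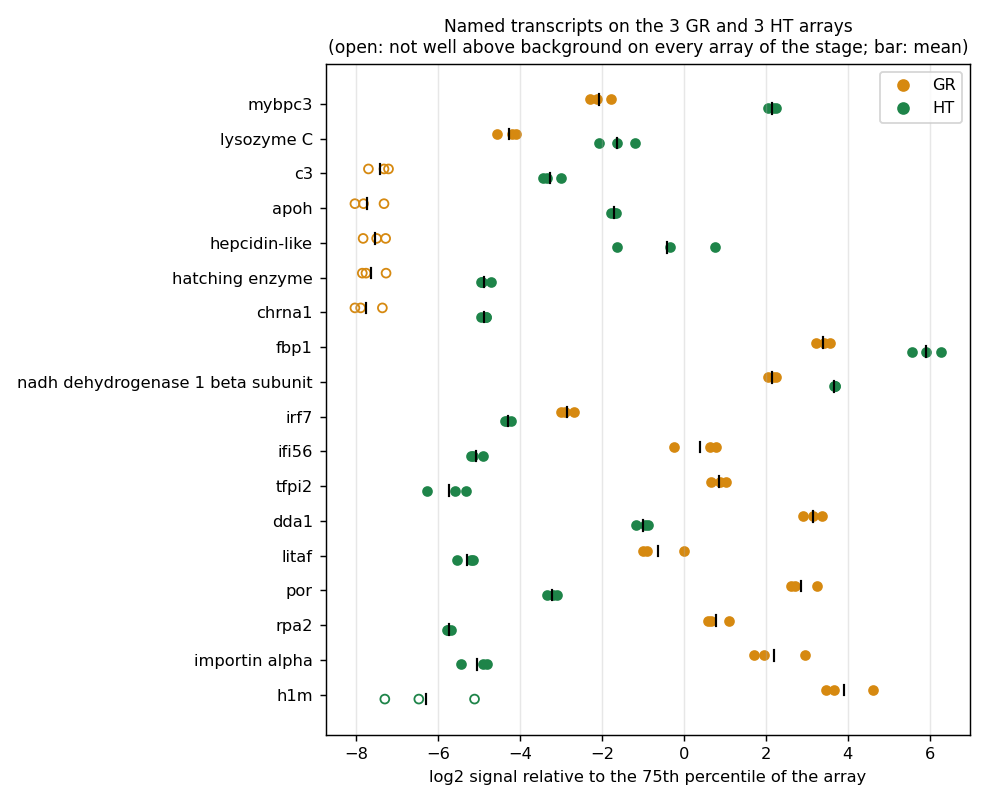
Log2 level relative to the 75th percentile of the array (x axis) of 18 named transcripts (y axis) on each of the 3 GR arrays (orange) and 3 HT arrays (green), with the stage mean as a black bar; open circles mark a stage in which at least 1 array did not detect the probe. No transcript shown has overlapping stages, and c3, apoh, hepcidin-like, hatching enzyme and chrna1 are in the background at GR; under normexp c3, hatching enzyme and chrna1 turn, and under spike-in scaling irf7 turns.

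Interferon, antigen presentation and lymphocyte-related transcripts included both risers and fallers. Interferons are released on viral infection, irf7 is the transcription factor that switches on their genes, and proteins such as ifi56 are made in response. Of 14 probes 12 passed the filter, of which 3 rose, 6 fell and 3 were not called (median -1.07). The 25% higher and 50% lower stand beside 27.7% and 32.6% of all probes. Under spike-in scaling 10 of the 12 were higher at HT, and under normexp all 12 were lower.

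The interferon-induced ifi56 changed most. Its 0.78, 0.64 and -0.23 at GR set it well above its -5.19, -5.14 and -4.91 at HT (44.6-fold lower, limma adjusted p = 1.64e-06). It came from the GR list and averaged -4.7 at 8CS. Interleukin 7 (il7), a growth factor of lymphocytes and also from the GR list, was at -3.43, -2.91 and -3.0 at GR and at -6.47, -6.79 and -6.61 at HT, where 1 array detected it (11.4-fold lower, limma adjusted p = 2.43e-06).

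The study measured irf7 by qPCR as well, because it differed with egg quality. The primers of irf7 and of 2 further qPCR targets that were called here are shown, 5′ to 3′, since each names the transcript by its own sequence where no genome position was assigned.
irf7 forward: actgtcaatgtggttcct
irf7 reverse: atcgtagaggctgttgtg
cyp2n forward: cataccaaagggaacctctgt
cyp2n reverse: ggttgaaggtgtctggagtt
HH_193889799 forward: cagccctacagaagagtt
HH_193889799 reverse: attgctattgaagttggaaca

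On the arrays irf7 was at -2.91, -2.99 and -2.67 at GR and at -4.36, -4.23 and -4.31 at HT (2.72-fold lower, limma adjusted p = 7.77e-05), with a difference of -1.44 on the log2 scale that became 1.17 under spike-in scaling. The ubiquitin ligase rnf213, which is induced by interferon, moved by as much: it was at -5.23, -5.31 and -4.92 at GR, where 2 arrays detected it, and at -6.64, -6.54 and -6.57 at HT (2.7-fold lower, limma adjusted p = 0.000103, 1.17 under spike-in scaling). The kinase tbk1, which activates interferon regulatory factors, is counted among the 6 that fell, but no array of either stage detected it and it has no fold-change.

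HH_193889799, an unnamed member of the egg quality set, fell as well. It was at 1.61, 1.36 and 1.14 at GR and at -7.25, -7.04 and -8.01 at HT, where 1 of 3 arrays detected it (limma adjusted p = 1.48e-07, with no fold-change given). At 10SS it stood between, at -5.09, -4.46 and -1.0. Of the 20 transcripts of the egg quality set 17 passed the filter, and 2 rose, 7 fell and 8 were not called at HT against GR. Their 41.2% lower and 11.8% higher stand beside 32.6% and 27.7% of all probes.

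Neither antigen presentation probe that passed the filter was called. The mhc1a probe, for the chain that displays peptides to T cells, was at -4.16, -4.1 and -4.3 at GR and at -5.03, -4.71 and -4.95 at HT. Its log2 difference of -0.71 (limma adjusted p = 0.00391) did not reach 2-fold. It was called lower with quantile normalization (-1.43), the normexp runs (-1.6 and -1.27), slide as a block (-1.68 and -1.44) and the deposited table (-1.4), and was 1.9 under spike-in scaling. Of psmb9, a subunit of the immunoproteasome that cuts such peptides, the levels were -3.35, -3.2 and -2.88 at GR and -2.13, -2.38 and -2.58 at HT, a log2 difference of 0.78 that missed the 2-fold limit too, but it was called higher under spike-in scaling (3.39) and with slide as a block (1.16 fixed, 1.07 random), and was -0.09 under normexp. The mhc2a probe did not pass the filter.

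Among the lymphocyte-related probes, the checkpoint ligand pd-1l was at -5.3, -5.48 and -5.09 at GR, detected on 2 arrays, and at -8.43, -7.39 and -7.66 at HT, in the background at HT (limma adjusted p = 9.84e-05), and its fitted difference was 0.07 under spike-in scaling. The GTPase gimap7 of T cells and the adaptor pstpip1 of leukocytes, both from the HT list, rose at least 5.28-fold and at least 3.65-fold, but turned to -0.31 and -0.75 under normexp. The stages overlapped for ms4a8a, a membrane protein of the CD20 family, at -1.33, -1.17 and -1.46 against -2.28, -1.51 and -1.41 (limma adjusted p = 0.169).

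Muscle and cytoskeleton transcripts changed in both directions. Of 10 probes 9 passed the filter, 4 rose, 3 fell and 2 were not called (median 0.72), and 1 of those that fell, myo19, was detected on no GR or HT array. Their 44.4% higher and 33.3% lower stand beside 27.7% and 32.6% of all probes. Under spike-in scaling all 9 were higher at HT, and under normexp 3 were higher and 6 lower. The rise of mybpc3, which binds the thick filaments of the sarcomere, was the largest of the group: its levels of -1.78, -2.29 and -2.11 at GR and 2.06, 2.24 and 2.18 at HT differed 18.6-fold (limma adjusted p = 6.46e-07). The 10SS arrays were still at the GR level, at -1.77, -1.9 and -1.87. By contrast mylc6, a myosin light chain of smooth muscle and non-muscle cells from the 10SS list, was at -1.66, -1.57 and -2.07 at GR and at -0.2, 0.08 and 0.12 at HT (3.4-fold higher, limma adjusted p = 8.44e-05). Acetylcholine receptor subunit chrna1, which sits at the nerve to muscle synapse, was in the background on all GR arrays and at -4.96, -4.84 and -4.84 at HT (at least 2.6-fold, limma adjusted p = 8.91e-06), with -0.96 under normexp.

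Lower at HT was parvalbumin (pval), the calcium buffer of fast muscle, which had 1.57, 1.07 and 1.44 at GR and 0.05, -0.1 and 0.08 at HT (2.54-fold lower, limma adjusted p = 0.000259) and 1.26 under spike-in scaling. It was taken from the GR list. The capping protein capzb of the muscle Z line spread at GR, at 0.35, 0.44 and 1.46, and overlapped with its 1.55, 1.6 and 1.25 at HT (limma adjusted p = 0.0648). The high GR value was replicate 3, and without that array the log2 difference moved from 0.72 to 1.07 and was called. The capzb probe was also called higher with array weights (1.08), slide as a block (2.33 fixed, 1.93 random) and spike-in scaling (3.33). The microtubule-associated protein homolog of the egg quality set was 3.76-fold lower at HT and turned under spike-in scaling.

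Extracellular matrix transcripts were mostly higher at HT, where 4 of 5 probes rose and 1 fell (median 1.99) beside 27.7% and 32.6% of all probes. The signs were the same under quantile normalization, normexp and spike-in scaling, but the calls were not. Under normexp the log2 differences of emilin2 (0.15, against 1.56) and mfap4 (0.88, against 2.6) were no longer called. Both risers from the 10SS list were chosen for a peak before hatching. The collagen chaperone fkbp10 was at -2.86, -2.91 and -3.35 at GR and at -0.43, -0.44 and -0.33 at HT (6.22-fold, limma adjusted p = 6.91e-06). Transglutaminase 2 (tgm2), which crosslinks matrix proteins, was at -0.61, -0.29 and -0.52 at GR and at 1.63, 1.49 and 1.44 at HT (3.97-fold, limma adjusted p = 1.55e-05), and had reached 4.19 and 4.18 on 2 of the 10SS arrays. Its log2 difference of 1.99 was not called in the fits of 12 or 15 arrays. The microfibril proteins mfap4 and emilin2, from the HT list, were 6.05-fold and 2.95-fold higher. The zona pellucida-like probe, named for a protein family of the egg envelope and drawn from the 8CS list, fell from 1.38, 1.26 and 1.09 to -4.68, -4.79 and -4.83 (64.5-fold lower, limma adjusted p = 5.61e-08).

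Of the digestive and hatching enzymes 4 of 5 passed the filter, with 3 higher and 1 lower at HT (median 1.88), beside 27.7% and 32.6% of all probes. Among the risers, hatching enzyme and carboxypeptidase polypeptide 2 came from the HT list, so their direction was fixed by that choice. Hatching enzyme was at -7.27, -7.85 and -7.76 at GR, in the background, and at -4.94, -4.96 and -4.71 at HT (at least 2.62-fold, limma adjusted p = 9.8e-06). The HT level was low and it was -1.05 under normexp. Detected on all 6 arrays, carboxypeptidase polypeptide 2 was at -4.59, -3.92 and -3.83 at GR and at -1.88, -1.64 and -2.01 at HT (4.83-fold, limma adjusted p = 6.97e-05), a log2 difference of 2.27 that was 0.75 and not called under normexp. The aminopeptidase xpnpep2, which removes amino acids next to proline, was 2.78-fold higher and came from the 10SS list, and its call was lost under both normexp runs (0.66 and 0.88 against 1.48). The zymogen granule glycoprotein gp2, from the 8CS list, was at -2.66, -2.35 and -1.99 at GR and in the background at HT (at least 33.1-fold lower, limma adjusted p = 4.43e-06).

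Sensory and neural transcripts rose in 6 of 8 cases and fell in 2 (median 2.26), beside 27.7% and 32.6% of all probes, and 5 of the 6 risers were from the HT list. Under both normexp runs 3 of the 8 were higher and 5 lower, and under spike-in scaling 7 were higher. Wolframin (wfs1), a protein of the endoplasmic reticulum needed by neurons and islet cells in mammals, was detected throughout. It was at -3.22, -3.11 and -2.66 at GR and at -0.73, -0.78 and -0.85 at HT (4.62-fold, limma adjusted p = 2.28e-05). The eye and ear regulator eya1 was in the background at GR and at -4.54, -4.34 and -4.1 at HT (at least 3.82-fold), and the retinol dehydrogenase rdh5, which serves the visual cycle, at -4.22, -4.57 and -4.88 (at least 3.25-fold). Both of these turned under normexp, at -0.68 and -0.79. The probe synaptic 2, detected on 2 GR arrays, was 4.95-fold higher, and its call was lost under both normexp runs (0.35 and 0.76 against 2.31). An odorant receptor probe from the 8CS list went the other way, from -4.24, -3.8 and -3.33 to -7.36, -6.75 and -6.91 (9.29-fold lower, limma adjusted p = 2.36e-05). The adhesion receptor latrophilin 2, from the GR list, was 5.31-fold lower and stood at 0.2 under spike-in scaling.

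Transcripts that peak in the 8-cell embryo, before the embryonic genome is much used, were lower at HT than at GR. Of the 160 transcripts that the study listed as peaking at 8CS, 154 passed the filter, and 149 of these (96.8%) were called lower at HT than at GR, beside 32.6% of all probes. None was called higher, and the median difference was -2.8 against -0.23 over all probes. The direction held in 89 of the 154 under spike-in scaling and in all 154 under normexp. The list was made from 8CS against the other stages on arrays that include these 6. Well above background on every GR array were 133 of them, and on every HT array 106, while 34 were detected on no HT array. The median level over the 154 was -2.2, -2.18 and -1.73 on the GR arrays and -5.36, -5.37 and -5.49 on the HT arrays, so GR replicate 3 held the highest median.

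**Figure D5:**
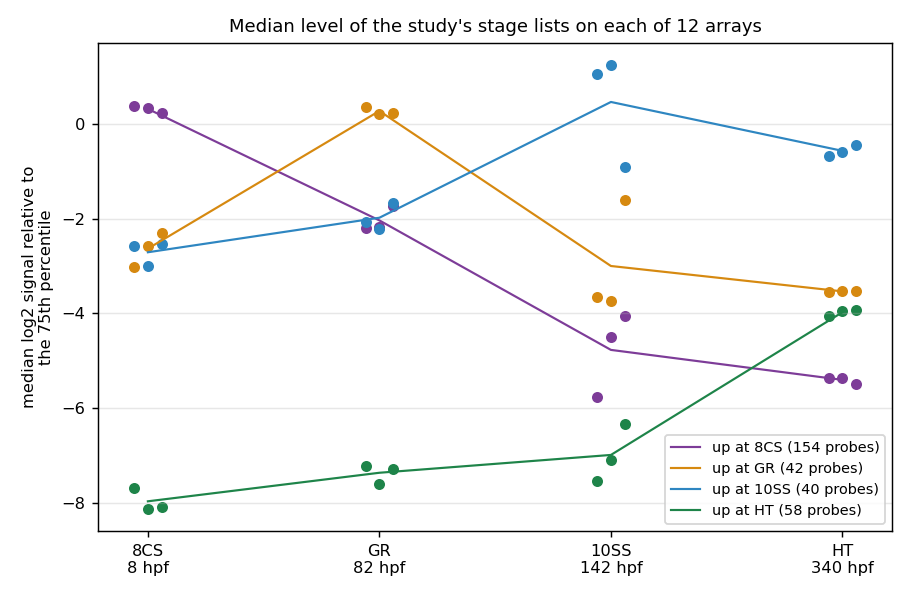
Median log2 level relative to the 75th percentile (y axis) of the probes in each of the study's 4 stage lists, on each of the 12 high quality arrays (points) by stage (x axis); lines join the stage means. The list for 8CS lies at -2.2 to -1.73 at GR and at -5.49 to -5.36 at HT, although 65 of its 154 probes are higher at HT under spike-in scaling; the lists were chosen on these arrays, and 1 of the 3 10SS arrays lies apart in the lists for GR and 10SS.

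Of 11 germ line and maternal RNA regulators, all from the 8CS list, 10 passed the filter. All 10 fell (median -2.86), beside 32.6% of all probes, and 4 of these 10 were higher at HT under spike-in scaling. The probe left out, eef1a2bp, was detected on no GR array and on 2 HT arrays. The linker histone h1m, an oocyte form that packs chromatin in early embryos, was among those that fell. It was at 3.67, 3.46 and 4.62 at GR and at -5.11, -6.47 and -7.3 at HT, where 2 of 3 arrays detected it (limma adjusted p = 2.49e-06, with no fold-change given). Its HT arrays spread more than its GR arrays, and without HT replicate 1 the fitted log2 difference moved from -10.21 to -10.81. The RNA-binding caprin2, of a family of translational regulators, was at -4.16, -3.98 and -4.03 at GR and in the background at HT (at least 14.3-fold lower, limma adjusted p = 5e-07). The helicase ddx19b, which helps messenger RNA out of the nucleus, was bounded at 30.4-fold lower.

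Smaller falls were found for others of the group. The antiproliferative btg3 was at 2.41, 2.33 and 2.98 at GR and at -0.22, -0.62 and -0.53 at HT (8.19-fold lower, limma adjusted p = 1.07e-05). The deadenylase cnot6, which shortens poly(A) tails and was detected on 2 of 3 HT arrays, was 5.4-fold lower. The chaperone fkbp6, which is needed in mammalian meiosis, was 3.9-fold lower. The Tudor domain protein tdrd3 had -4.36, -4.2 and -3.21 against -5.1, -5.33 and -5.33 (2.51-fold lower, limma adjusted p = 0.00484), and without GR replicate 3 its difference was -0.97 and no longer 2-fold. The RNA-binding rbpms2, which marks germ plasm in zebrafish, was 2.55-fold lower, and its difference was -0.08 when the slide entered a fit of 12 arrays. The last 4 of these were higher at HT under spike-in scaling.

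Cell cycle and nuclear transport transcripts were lower at HT in 12 of 13 cases (median -2.65), beside 32.6% of all probes, of which 5 were higher under spike-in scaling. Of the 13 members 11 were from the 8CS list, and gpsm2 among them was called lower but detected on no GR or HT array. Importin alpha, the adaptor that carries proteins with a nuclear signal through the nuclear pore, led with 1.95, 1.71 and 2.96 at GR and -4.8, -4.91 and -5.43 at HT (153-fold lower, limma adjusted p = 1.25e-06). The level of another importin, kpna4, taken from the GR list, was 5.81-fold lower, so both fell on this scale but by unlike amounts. Under spike-in scaling importin alpha was still called lower, whereas the log2 difference of kpna4 was 0.07. Replication protein A subunit rpa2, which coats single-stranded DNA, was at 0.67, 0.59 and 1.1 at GR and at -5.68, -5.76 and -5.78 at HT (92.2-fold lower, limma adjusted p = 8.39e-08).

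The group also held proteins of mitosis. The GTPase activator arhgap11a, active at cytokinesis, was at -1.82, -1.65 and -0.6 at GR and in the background at HT (at least 93.3-fold lower, limma adjusted p = 1.1e-06), and the mitotic kinesin kif20a was bounded at 40.9-fold lower. The inhibitor fbxo5, which holds back the anaphase promoting complex, was at -1.61, -1.29 and -0.81 at GR and at -4.57, -4.6 and -4.94 at HT (11.1-fold lower, limma adjusted p = 7.12e-06). The exception, the phosphatase cdkn3 from the 10SS list, had -0.72, -0.71 and -1.02 at GR and -0.18, -0.2 and -0.23 at HT, a log2 difference of 0.62 below the 2-fold limit. It was called higher under spike-in scaling (3.22) and with slide as a block (1.29 fixed, 1.18 random).

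Splicing, transcription and chromatin transcripts were lower at HT in all 14 cases (median -2.52), beside 32.6% of all probes, of which 8 were higher under spike-in scaling. As 11 of the 14 came from the GR list, that direction was largely fixed by the choice. The falls lay close together, between -4.38 and -1.83 on the log2 scale. The ubiquitin ligase subunit dda1 was at 3.15, 3.38 and 2.92 at GR and at -1.18, -0.95 and -0.88 at HT (17.8-fold lower, limma adjusted p = 7.37e-07). Splicing factor srsf6 was at -2.02, -1.84 and -1.96 at GR and at -4.69, -4.63 and -4.98 at HT (7.09-fold lower, limma adjusted p = 2.89e-06), and luc7l3, which belongs to the first complex at the 5′ splice site, was 6.6-fold lower. The elongation factor supt6h, the TFIID subunit taf1 and the cohesin loader nipbl were 5.74-fold, 4.78-fold and 4.01-fold lower, and all 3 turned under spike-in scaling. From the 8CS list, tceb3bp1 was in the background at HT and at least 19.1-fold lower.

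Transcripts of intermediary metabolism changed in both directions, with 6 higher, 4 lower and 5 not called of 15 (median 0.77). The 40% higher and 26.7% lower stand beside 27.7% and 32.6% of all probes. Under normexp 10 of the 15 were lower, and under spike-in scaling 12 were higher. Fructose bisphosphatase (fbp1), a key step of glucose synthesis, was at 3.22, 3.42 and 3.56 at GR and at 6.28, 5.91 and 5.57 at HT (5.73-fold, limma adjusted p = 2.42e-05). It was higher still at 10SS, at 7.73, 7.85 and 6.41. The last step of that pathway, g6pc, was detected on 1 GR array and 6.21-fold higher at HT, but -0.35 under normexp.

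The cytochrome P450 cyp2n, whose primers stand above, had -6.22, -5.99 and -5.32 at GR, where 1 array detected it, and -3.46, -3.7 and -3.9 at HT (4.46-fold, limma adjusted p = 0.000156, -0.38 under normexp). Steps of purine breakdown went opposite ways. Urate oxidase (uox), which oxidizes uric acid, was at -4.09, -3.9 and -2.91 at GR and in the background at HT (at least 17.2-fold lower, limma adjusted p = 1.1e-05), whereas the hiu hydrolase that takes the product of uox was in the background at GR and at least 2.21-fold higher at HT, with -1.11 under normexp. The first is from the GR list and the second from the 10SS list. Sarcosine oxidase pipox, a peroxisomal enzyme, rose at least 2.49-fold and also turned under normexp.

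Electron donor por, which serves the cytochromes P450, fell most in the group, from 2.71, 2.61 and 3.24 to -3.19, -3.1 and -3.34 (66.9-fold lower, limma adjusted p = 2.04e-07). The sterol enzyme hmgcs1 was 4.45-fold lower and stood at 0.46 under spike-in scaling. The stages overlapped for impa1 and adk. Inositol monophosphatase impa1 was at 1.67, 1.63 and 0.9 at GR and at 3.77, 1.45 and 0.4 at HT (limma adjusted p = 0.596), and without HT replicate 1 its log2 difference turned from 0.47 to -0.48. It also turned with array weights (-0.15), but was called higher under spike-in scaling (3.08) and with slide as a block (3.62 fixed, 3.07 random). Adenosine kinase adk was at -1.54, -2.3 and 0.66 at GR and at -1.89, -2.03 and -2.27 at HT (limma adjusted p = 0.209), and without GR replicate 2 its difference of -1.0 moved to -1.62 and was called, while without GR replicate 3 it moved to -0.14.

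In the mitochondria 3 of 6 probes rose, 1 fell and 2 were not called (median 1.07), beside 27.7% higher and 32.6% lower of all probes. A beta subunit of NADH dehydrogenase, complex I of the respiratory chain, was at 2.18, 2.24 and 2.05 at GR and at 3.68, 3.69 and 3.66 at HT (2.87-fold, limma adjusted p = 3.47e-05). Subunit C of succinate dehydrogenase (sdhc), complex II, was at 2.9, 2.82 and 2.97 at GR and at 4.19, 4.02 and 3.94 at HT (2.22-fold, limma adjusted p = 0.000211). Malate dehydrogenase (mdh) was at 0.44, 0.6 and 0.55 at GR and at 1.62, 1.47 and 1.46 at HT, with a log2 difference of 0.99 (limma adjusted p = 0.000415) just short of the 2-fold limit, and it was called under 10 of 22 alternatives: with quantile normalization and the deposited table (1.07 each), the normexp runs (1.09 and 1.07), spike-in scaling (3.59), slide as a block (3.97 and 3.35), and without GR replicate 2 (1.02), HT replicate 2 (1.01) or HT replicate 3 (1.01). The slide values of mdh rest on 10SS replicate 3, at -0.25 beside 2.55 and 2.89 on the other 10SS arrays. All 3 of these transcripts were from the 10SS list. The adenine nucleotide carrier slc25a5 was from the 8CS list and fell, from 3.87, 3.87 and 4.12 to 0.2, -0.33 and -0.26 (16.9-fold lower, limma adjusted p = 1.13e-06).

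The secretory pathway group had 3 risers, 1 faller and 2 not called of 6 (median 0.94), beside 27.7% higher and 32.6% lower of all probes. Under spike-in scaling all 6 were higher at HT, and under normexp 3 were higher and 3 lower. Coat protein cope, of the vesicles that return cargo from the Golgi, was at 0.07, 0.14 and 0.0 at GR and at 1.36, 1.39 and 1.31 at HT (2.43-fold, limma adjusted p = 7.93e-05). Vesicle fusion protein bet1, from the GR list, was at 2.47, 2.45 and 2.93 at GR and at 0.44, 0.54 and 0.5 at HT (4.37-fold lower, limma adjusted p = 2.22e-05), with 0.48 under spike-in scaling.

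Junctions, channels and transporters fell in 6 of the 9 probes kept and rose in 2 (median -2.71) beside 32.6% and 27.7% of all probes. Both risers came from the HT list, and 2 of the fallers, claudin 17 and abca1, from the GR list. The direction of these members was fixed by that choice. Under spike-in scaling 4 of the 9 were higher and under both normexp runs none was, so both risers turned. Claudins seal tight junctions between epithelial cells. Claudin 4, from the 8CS list, was at 3.06, 2.7 and 3.85 at GR and at -6.02, -7.0 and -7.96 at HT, where 1 of 3 arrays detected it (limma adjusted p = 1.49e-06, with no fold-change given). Claudin 17, from the GR list, was at -3.67, -3.51 and -4.26 at GR and in the background at HT (at least 13.3-fold lower, limma adjusted p = 2.22e-05). The lipid exporter abca1 was at 0.16, 0.34 and 0.14 at GR and at -3.84, -4.39 and -4.61 at HT (22.5-fold lower, limma adjusted p = 1.41e-06). A urea transporter was detected on 2 GR arrays, with -5.88, -5.5 and -3.86, and on no HT array, with -8.39, -7.72 and -8.12 (limma adjusted p = 0.000946), and its fitted log2 difference of -3.0 was -2.38 without GR replicate 3, and was no longer called with slide as a fixed block (-1.24) or under spike-in scaling (-0.39).

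Where GR arrays disagreed, replicate 3 was mostly the one apart. Among probes well above background on all 3 GR arrays, 109 of 7140 had an SD over 1, and replicate 3 was farthest from the other GR arrays in 82 of these and the highest in 80. At HT the same held for 15 of 8734 probes, impa1 and hepcidin among them. The counts of calls were little changed by any 1 array: without 1 array at a time they ranged from 5386 to 5485.

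Probes also differed by the sequence collection that their number comes from. The 399 probes whose identifiers begin with HH_1938, from ESTs with FK accessions, were called higher at HT in 9.27% of cases and lower in 56.4%, with a median of -1.19. For the 235 probes that begin with HH_6238 these shares were 46.8% and 18.7%, with a median of 0.81, and for the 2872 contigs 29.8% and 29.4%. What tissues these collections were made from was not analysed here.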

How the data were processed

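Samples were assigned from their labels. The authors deposited 1 scanner file per array, whose processed signal is a linear intensity from which the local background had been subtracted, with no scaling across arrays. The file headers name Feature Extraction 10.7.1.1, whereas the submitters' processing notes give 7.2. A further deposited table, used as an alternative, holds log2 values of 9017 probes after a 75th percentile shift and centring per probe. Each array held 43803 probe spots. Control spots and outlier spots (903 to 1136 per array) were left out, and no spot was saturated. Spots were averaged per probe, as log2 of processed signal minus the array's 75th percentile. A probe counted as well above background on an array if a share of 0.5 or more of its spots did.

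The 2 stages were compared by limma 3.58.1 in R 4.3.3 with moderated variances, and p-values were adjusted by Benjamini and Hochberg's method over all probes kept. In simulated data for HT against GR (9058 probes, 50 changed at each size), 74% were recovered at a log2 change of 1.5 and 94% at 3, with 5 false calls. Far fewer probes were changed there than the 60.3% called here, and the noise was independent with no slide effect. These rates therefore do not carry over to the comparison. Arrays give no depth, and their number limits the precision.

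Named are members of functional groups built from the study's tables, the 10 largest rises and falls among probes detected on all 6 arrays, and the 5 largest bounds in each direction. Members and lists were chosen with earlier results of these data known. The sources used here pair no probe outside the study's tables with a gene, and no genome positions are given. Primers come from the study's supplementary table. Alternatives were quantile, spike-in and 2 normexp treatments (offset 50, the second with outlier local backgrounds replaced), 3 filters, the median over spots, fits of 12 or 15 arrays, slide or replicate as a block, a variance prior that follows intensity, array weights, no fold limit, the table of log2 values and each array left out.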

Additional observations from a re-analysis of the deposited data

How the results depend on the processing

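The count of calls stayed between 3969 (only probes detected on all 6 arrays, 7027 tested) and 7393 (spike-in scaling), against 5458. The split by direction did not. Probes higher at HT numbered 1336 with detection on all 6 arrays, 1372 with normexp, 1544 with the second normexp run and 7188 with spike-in scaling, which left 205 lower. Without a filter on low signal 6078 of 10180 were called, and without the fold limit 6963. Calls higher at HT made up 46% of all calls, 97.2% under spike-in scaling, 24.7% and 30.1% under the normexp runs and 33.7% with detection on all 6 arrays. The median difference of -0.23 became -0.46 with quantile normalization, 2.38 with spike-in scaling, -0.87 and -0.66 with the normexp runs, -0.14 with detection on all arrays of at least 1 stage, -0.5 with detection on all 6, -0.55 and -0.49 with slide as a fixed or random block over 12 arrays, and -0.43 in the deposited table. In the slide fits only 10SS replicate 3, which shares the HT slide, links that slide to the others. That array correlated more with the GR arrays than with the other 10SS arrays, so these fits do not settle the effect of slide.

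Without 1 array at a time, calls ranged from 5386 to 5485, probes higher from 2482 to 2571, lower from 2881 to 3003, and the median from -0.26 to -0.2. No pairing by replicate number was seen: deviations of same-numbered GR and HT arrays correlated at -0.03, 0.06 and -0.23, and those of other pairs at -0.17 to 0.17. With 3 arrays per stage this cannot tell whether batches were matched. With the replicate number as a block 5469 probes were called, and 5455 of the 5458 remained in the same direction.

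Over 94 named transcripts and their alternatives, 1913 of 2026 values kept direction and call, 31 lost the call, 31 gained one and 51 turned. The calls gained were those of mdh, mhc1a, capzb, psmb9, cdkn3, impa1 and adk. Calls lost were, with normexp, emilin2, mfap4, synaptic 2, xpnpep2 and carboxypeptidase polypeptide 2, with the second normexp run, c3, cfd, gimap7, g6pc, cyp2n, emilin2, synaptic 2 and xpnpep2, under spike-in scaling, luc7l3, srsf6, the urea transporter, btg3, the odorant receptor, fbxo5 and il7, in the fits of 12 or 15 arrays, sdhc and tgm2 (and hiu hydrolase with 12), with slide as a block, rbpms2, the urea transporter, pd-1l and eya1, and without GR replicate 3, tdrd3. Under spike-in scaling the log2 difference turned for kpna4 (0.07), pd-1l (0.07), supt6h (0.09), cnot6 (0.17), latrophilin 2 (0.2), tbk1 (0.32), taf1 (0.35), hmgcs1 (0.46), bet1 (0.48), nipbl (0.61), fkbp6 (0.65), the microtubule-associated protein homolog (0.7), irf7 (1.17), rnf213 (1.17), pval (1.26), rbpms2 (1.26), tdrd3 (1.28), adk (1.6), mhc1a (1.9) and ms4a8a (2.2). Under normexp it turned for c3 (-0.04), cfd (-0.09), psmb9 (-0.09), gimap7 (-0.31), g6pc (-0.35), cyp2n (-0.38), clec4e (-0.49), pycard (-0.6), eya1 (-0.68), pstpip1 (-0.75), rdh5 (-0.79), chrna1 (-0.96), hatching enzyme (-1.05), pipox (-1.1), hiu hydrolase (-1.11) and tissue factor 2 (-1.11). With outlier backgrounds replaced it turned for clec4e (-0.02), pycard (-0.04), eya1 (-0.14), pstpip1 (-0.22), rdh5 (-0.24), chrna1 (-0.42), hatching enzyme (-0.51), pipox (-0.56), hiu hydrolase (-0.56) and tissue factor 2 (-0.57). The constant of 50 is a larger share of the dimmer GR signals by construction. With slide as a fixed block adk (0.33) and ms4a8a (2.24) turned, with a random block ms4a8a (1.75), with array weights impa1 (-0.15), and without HT replicate 1 impa1, whose values without 1 array at a time ran from -0.48 to 1.21.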
